A study of Mus musculus with 4 samples.

Results

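The cytosolic translation factors are the proteins that start and extend protein chains on the ribosome. Transcripts of 56 of their genes were compared between Snai1 knockout and control mouse embryonic stem (ES) cells, out of 18193 genes measured. The members were all genes with at least 1 probe set annotated to a single gene whose symbol begins with Eif1 to Eif6, Eef1 or Eef2, without the sex-linked pair Eif2s3x and Eif2s3y. They had 150 such probe sets, and each gene was represented by its brightest, meaning that of the highest mean value. Eif2s1 and Eif4g1 had no such probe set in the annotation used and were not analysed here, nor were factors whose probe sets were annotated to several genes.

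RNA from 2 Snai1 knockout and 2 control cultures was labelled from the 3' end and hybridised to single-colour Affymetrix arrays. Both groups were ES cells kept undifferentiated with leukaemia inhibitory factor on a feeder layer and given no further treatment. F/F in the control titles is not spelled out, and their genotype field reads control although their source name also contains the words knock out. The direction of every difference therefore rests on titles and genotype fields. The labels call the replicates biological without saying what separated them, and give no line, clone or passage, so p-values measure only the spread between these samples. Values are log2 expression values, so a difference of 1 is a 2-fold change.

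Initiation begins when eIF2 brings the initiator tRNA to the small ribosomal subunit, while eIF1, eIF1A and the large eIF3 scaffold hold that subunit open for scanning. The cap-binding complex eIF4F recruits the messenger RNA, eIF5 and eIF5B let the large subunit join, while eIF2B and the eIF2 kinases set how often the cycle can run. eEF1 then delivers each aminoacyl-tRNA and eEF2 moves the ribosome by 1 codon. In ES cells overall protein synthesis is known to be low and to increase on differentiation.

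The arrays differed in RNA quality along with genotype. The gap between the control probe sets at the 3' and 5' ends of Actb was 1.11 and 0.80 on the knockout arrays and 3.02 and 2.97 on the control arrays (log2), and that of Gapdh was 0.40 and 0.27 against 1.24 and 1.48. The probe set of Snai1 itself read 3.79 and 4.04 in the knockout against 4.41 and 4.69 in the control, all within the range of 2.91 to 4.77 set by 27 control probe sets for Bacillus transcripts, with a difference of -0.63 (limma adjusted p = 0.0692). Of 10 ES cell markers 5 were higher in the knockout past the threshold and 0 lower, and their mean level was 11.77 and 11.68 in the knockout against 11.09 and 11.19 in the control. None of 17 measured feeder fibroblast markers passed in either direction (limma, 3 at an unadjusted p of 0.05), and their mean level was higher in replicate 1 of both groups (7.93 against 7.24 in the knockout, 8.11 against 7.50 in the control). The 3 were Prrx1 (-1.24, limma adjusted p = 0.0549), Fstl1 (-0.66) and Lum (-0.66), all lower in both knockout arrays. Others, such as Col1a1 (0.46) and Tagln (0.44), had positive differences with overlapping groups. S100a4 (0.30) and Pdgfrb (0.25) were higher in both knockout arrays. The median difference over the feeder markers was -0.21. The 3 measured blood markers averaged 3.97 to 4.04. The part of RNA quality and of feeder RNA in the differences below was not tested.

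Of the 56 translation factor genes, 1 rose and 1 fell in the knockout. Eif6, which keeps free large ribosomal subunits from joining small ones, rose about 2-fold, and Eif2ak4, the amino acid sensing eIF2 kinase GCN2, fell by a log2 difference of 0.76. The remaining 54 did not pass the threshold, a Benjamini-Hochberg adjusted p of 0.05 over all genes (limma). The share was 3.57%, against 4.14% of all genes (1.98% higher, 2.17% lower). The members were brighter than most genes, with a median level of 11.05 against 6.18. With genes at a mean under 5 left out 2 of 55 members passed (3.64%, against 8.2% of 11789 genes), and with those under 6 left out 3 of 52 (5.77%, against 12.9% of 9484). At an unadjusted p of 0.05, 12 members passed (21.4%), against 23.9% of all genes. They were Eif6, Eif2ak1, Eef2, Eif5b and Eif5a, all higher, and Eif2ak4, Eif2ak3, Eif5a2, Eif2a, Eif1a, Eif2d and Eef2k, all lower, 5 and 7 in number. The median difference was -0.03 over the members and -0.02 over all genes, and the median size of a difference was 0.21 and 0.18. In 33 members the difference was under 0.25 in size, in 7 it was 0.5 or more, and in 1 it was 1 or more. Both knockout arrays lay above both control arrays in 13 members (23.2%, against 23.1% of all genes) and below them in 19 (33.9%, against 29.2%), in all 57.1% against 52.3%. In bulk RNA a lower level in every cell and fewer cells carrying the transcript cannot be told apart. With any 1 array left out none of the 56 passed (limma, 8 to 11 at an unadjusted p of 0.05), while 4 to 50 of all genes did.

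**Figure D1:**
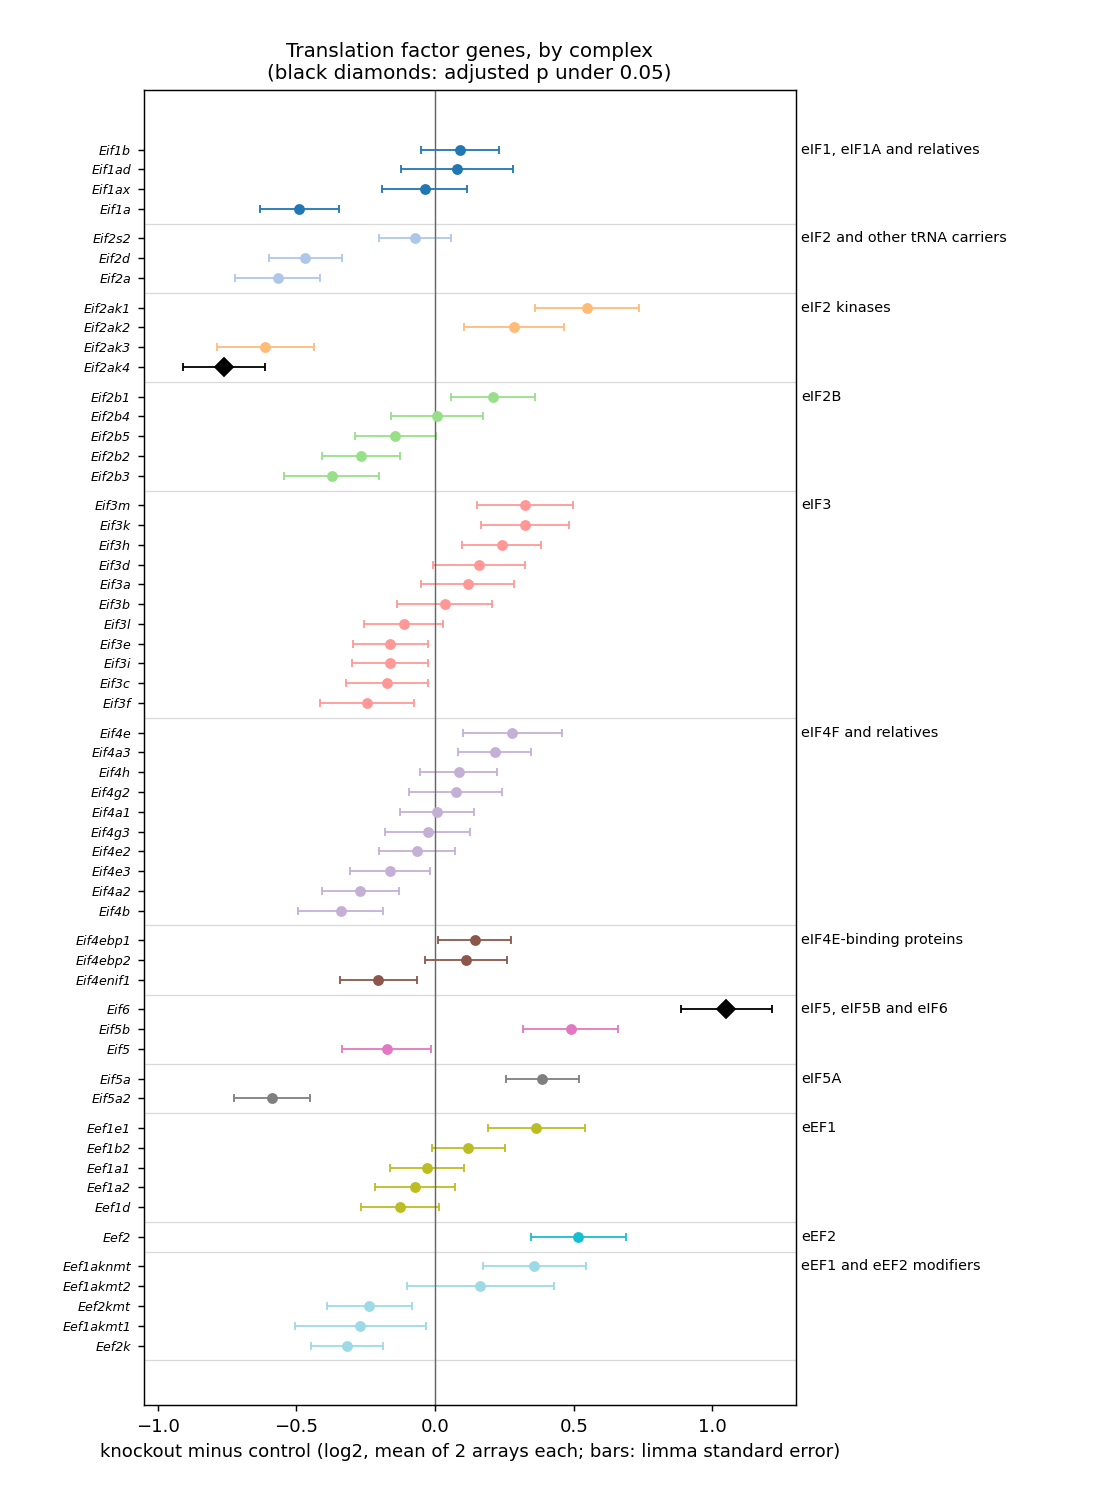
Knockout minus control difference (log2, horizontal axis) of the 56 translation factor genes, grouped by complex, with bars for limma's standard error. Only Eif6 (1.05) and Eif2ak4 (-0.76), drawn as black diamonds, passed an adjusted p of 0.05, and most other points lie within 0.5 of 0.

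Among the genes for start codon selection none passed. Eif1a, an autosomal copy of the scanning factor eIF1A, was at 10.89 and 11.09 in the knockout against 11.44 and 11.53 in the control. Both knockout arrays lay below both control arrays, with a difference of -0.49 ± 0.14 (SE, limma adjusted p = 0.0894), and its other bright probe set differed by -0.37. Its X-linked counterpart Eif1ax was at 12.24 and 12.53 in the knockout against 12.39 and 12.46 in the control by its brightest probe set, so the groups overlapped. The other 2 bright probe sets of Eif1ax, however, read 8.73 and 8.90 against 9.37 and 9.53, and 6.45 and 6.57 against 7.29 and 7.19. Those were lower in both knockout arrays, by 0.64 and 0.73 on the log2 scale, and did not pass when probe sets were tested singly (limma adjusted p = 0.0737 and 0.0581). The 2 genes share much of their sequence, and whether RNA of one bound probes of the other was not tested. Eif1b, a paralog of eIF1, and Eif1ad, a nuclear relative of eIF1A, differed by 0.09 and 0.08 with overlapping groups.

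None of the 3 measured genes that bring initiator tRNA to the ribosome passed. By their brightest probe sets all 3 lay lower in both knockout arrays, as did 29.2% of all genes. Eif2s2, the beta subunit of eIF2, was at 13.46 and 13.51 in the knockout against 13.54 and 13.58 in the control, for a difference of -0.07 ± 0.13 (SE) that is smaller than its error. Of its 4 other bright probe sets 3 were higher in both knockout arrays, by 0.32, 1.10 and 1.03, and 1 was lower, by 0.45 on the log2 scale, and none of these passed singly. Eif2a, which can deliver the initiator tRNA without eIF2, was at 10.41 and 10.60 against 10.95 and 11.20, a difference of -0.57 (95% interval -0.93 to -0.21, limma adjusted p = 0.0762). Its other bright probe set pointed the other way, at 0.18. Eif2d, a further tRNA-delivering factor known from recycling and reinitiation, was at 10.57 and 10.56 against a control mean of 11.03, a difference of -0.47 (limma adjusted p = 0.0828), but its other 2 bright probe sets differed by 0.05 and -0.20.

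The 4 eIF2 kinases phosphorylate eIF2 under different stresses and so lower initiation throughout the cell while favouring a few stress transcripts such as Atf4. Of the 4, Eif2ak4 alone passed. It was at 7.01 and 6.74 in the knockout against 7.65 and 7.62 in the control. The groups did not overlap, and the gap between them was wider than that between the replicates of either. The difference was -0.76 ± 0.15 (SE, 95% interval -1.10 to -0.41, limma adjusted p = 0.0437), a 1.69-fold lower level. Its only other probe set lay in the background range. The call did not hold with an intensity trend in the prior variance (adjusted p = 0.0558), with the trend by span and level taken out of each array (-0.55, adjusted p = 0.0627), with all probe sets averaged (-0.31, adjusted p = 0.207), or on any 3 of the arrays (adjusted p from 0.0708 to 0.174).

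Eif2ak3, which encodes PERK, the kinase of the endoplasmic reticulum, was at 8.34 and 7.90 in the knockout against 8.78 and 8.69 in the control. It differed by -0.61 ± 0.17 (SE, limma adjusted p = 0.0860), with groups that did not overlap. Eif2ak1, the haem-regulated kinase HRI, was at 7.72 and 7.21 against 6.87 and 6.95, a difference of 0.55 ± 0.19 (SE, limma adjusted p = 0.129). Another of its probe sets, at 6.45 and 6.39 against 5.50 and 6.16, differed by 0.59, and one more by -0.40. Eif2ak2, the double-stranded RNA kinase PKR, had overlapping groups between 5.21 and 5.83.

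Snail binds E-boxes of the sequence CAGGTG, so the promoters of the members were searched for it. RefSeq promoters (build GRCm38.p6, 250 bases before to 50 after each annotated start) were held for 45 of the 56 genes, 60 promoters in all. CAGGTG, read on both strands (CACCTG on the other), was present in 7 of the 60 promoters (11.7%), belonging to 6 genes, against 20.2% of all 32851 promoters in that table. Eif2ak4 is the gene past the threshold for which a promoter was held, and both of its annotated starts carry 1 copy, 176 and 100 bases before the start. The 250 bases before each start are shown 5′ to 3′ with that copy in capitals.
Eif2ak4, first annotated start (chr2:118388367-118388616, plus strand): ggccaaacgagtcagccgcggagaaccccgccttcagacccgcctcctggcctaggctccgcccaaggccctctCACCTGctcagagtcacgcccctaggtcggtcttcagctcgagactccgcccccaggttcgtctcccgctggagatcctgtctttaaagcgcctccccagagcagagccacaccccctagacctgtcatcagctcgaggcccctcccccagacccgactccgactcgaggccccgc
Eif2ak4, the other annotated start (chr2:118388862-118389111, plus strand): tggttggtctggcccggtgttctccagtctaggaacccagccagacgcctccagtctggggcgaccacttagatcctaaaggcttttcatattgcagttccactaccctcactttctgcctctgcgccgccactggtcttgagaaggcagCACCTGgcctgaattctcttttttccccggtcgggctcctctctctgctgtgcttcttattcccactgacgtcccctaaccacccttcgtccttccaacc
The remaining 5 genes with the E-box are shown with the 20 bases on each side of it, or fewer where the promoter ends.
Eif2ak3 (chr6:70844539-70844564, plus strand): gtctgcacaaggctgtcactCAGGTG
Eif2d (chr1:131153160-131153205, plus strand): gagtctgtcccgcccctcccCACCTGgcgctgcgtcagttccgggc
Eef2k (chr7:120842695-120842740, plus strand): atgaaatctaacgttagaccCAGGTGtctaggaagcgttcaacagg
Eif3c (chr7:126566354-126566399, minus strand): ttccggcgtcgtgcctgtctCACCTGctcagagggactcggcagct
Eif5b (chr1:37997989-37998034, plus strand): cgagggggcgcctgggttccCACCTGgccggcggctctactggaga
In Eif2d, Eef2k, Eif3c and Eif5b the match begins 27, 116, 13 and 1 bases before the annotated start, and in Eif2ak3 it begins at base 45 after it. By the brightest probe set 5 of the 6 genes had a negative difference (Eif2ak4, Eif2ak3, Eif2d, Eef2k at -0.32 and Eif3c at -0.17). The remaining gene, Eif5b at 0.49, had a positive one, and only Eif2ak4 passed. Eif2d, Eif3c and Eif5b each also had a bright probe set of the opposite sign. Differences were negative in 29 of all 56 members (51.8%) and in 53.4% of all genes, and 5 of these 6 genes span 30 kb or more, where negative differences were the more frequent. A match is a description of the letters and not a bound site.

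eIF2B recharges eIF2 with GTP and is the complex that phosphorylated eIF2 blocks. None of its 5 subunits passed, and they differed by -0.37 to 0.21. Eif2b3, the gamma subunit, was at 9.30 and 9.55 in the knockout against 9.62 and 9.97 in the control (-0.37, limma adjusted p = 0.242), with knockout arrays that lay below the control arrays. Eif2b2, the beta subunit, depended on the probe set. Its brightest was lower in both knockout arrays (9.99 and 10.13 against 10.25 and 10.41), whereas another was higher in both (9.57 and 9.91 against 8.83 and 9.19), as was a dimmer one (7.34 and 7.71 against 6.59 and 7.01). Those 2 differed by 0.73 and 0.72 and did not pass singly. The catalytic epsilon subunit Eif2b5, with Eif2b4 and Eif2b1, had overlapping groups.

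The 11 measured subunits of eIF3 differed by -0.24 to 0.32, 6 above 0 and 5 below, with none past the threshold and a median difference of 0.03. Eif3m, at 11.57 and 12.01 in the knockout against 11.44 and 11.49 in the control, had the largest difference, 0.32 ± 0.17 (SE, limma adjusted p = 0.318). Eif3k (0.32) and Eif3h (0.24), like Eif3m, were higher in both knockout arrays. Eif3f was at 12.76 and 12.36 against 12.85 and 12.76, a difference of -0.24, and Eif3c, Eif3e and Eif3i were lower in both knockout arrays by 0.16 to 0.17 in size. Eif3a, the largest subunit, and Eif3b, both part of the core of the complex, differed by 0.12 and 0.03, with overlapping groups, as did Eif3d (0.16) and Eif3l (-0.11). By the brightest probe sets, the 95% intervals of the 11 subunits reached from -0.64 to 0.73. The other bright probe sets of Eif3c differed by -0.46, 0.12 and 2.63, and those of Eif3a by -0.33, 0.60 and 2.38. None of these passed singly.

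eIF4F consists of the cap-binding protein eIF4E, the scaffold eIF4G and the helicase eIF4A, with eIF4B and eIF4H as helicase partners. None of the 10 measured genes of this group passed, and the median difference was -0.01. Eif4e was at 11.65 and 11.79 in the knockout against 11.21 and 11.67 in the control, for a difference of 0.28 ± 0.18 (SE, limma adjusted p = 0.412), with overlapping groups. Its other 2 bright probe sets pointed the other way, by -0.32 and -0.48. Eif4b was at 12.15 and 11.85 against 12.31 and 12.36, the largest difference in the group (-0.34 ± 0.15, SE, limma adjusted p = 0.231), and its other probe sets differed by -0.08 and 0.39. By its brightest probe set the helicase gene Eif4a1 was at 13.87 and 13.76 against 13.77 and 13.85. That is a difference of 0.01 with a 95% interval of -0.31 to 0.32. Its other bright probe sets were higher in both knockout arrays, by 0.16 and 1.11, and the latter passed singly (limma adjusted p = 0.0427). Eif4a2, the paralog common in non-dividing tissue, was lower in both knockout arrays by 0.27 on the log2 scale (12.64 and 12.51 against 12.79 and 12.90). The scaffold genes Eif4g2, which encodes the cap-independent relative DAP5, and Eif4g3 differed by 0.07 and -0.03. By its other bright probe sets Eif4g2 was lower in both knockout arrays, by 0.20 and 0.51 on the log2 scale, and neither passed singly. Eif4h, Eif4e2 and Eif4e3 differed by 0.08, -0.06 and -0.16. Another probe set of Eif4e2, nearly as bright, was higher in both knockout arrays by 0.46 and did not pass singly. The dimmer ones at a mean above 6 differed by 0.05 and 0.07. Eif4a3, a helicase of the exon junction complex, read 4.24 to 4.49 on all arrays, within the background range, and is the 1 member that was not measured above it.

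The proteins that keep eIF4E from the scaffold were represented by 3 genes. Eif4ebp1, the classical target of mTOR, was at 12.39 and 12.40 in the knockout against 12.28 and 12.22 in the control by its brightest probe set, a difference of 0.14 ± 0.13 (SE, limma adjusted p = 0.587). Its other bright probe set was at 12.13 and 12.21 against 11.08 in both control arrays, a difference of 1.09 that passed when probe sets were tested singly (limma adjusted p = 0.0439). When probe sets whose identifiers mark possible cross-hybridisation (_s_at, _x_at) were left out, this probe set stood for the gene, which then passed (1.09, adjusted p = 0.0187). Eif4ebp2, its relative, differed by 0.11 with overlapping groups, and Eif4enif1, which carries eIF4E into the nucleus and processing bodies, by -0.20 (9.65 and 9.49 against 9.82 and 9.74).

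Of the 3 genes that act at subunit joining, 1 rose. Eif6 was at 11.30 and 11.48 in the knockout against 10.17 and 10.51 in the control. Both knockout arrays lay well above both control arrays. The difference of 1.05 ± 0.16 (SE, 95% interval 0.67 to 1.43) is a 2.07-fold higher level (limma adjusted p = 0.0331), and it was the only member to reach a difference of 1. A dimmer probe set of Eif6 was at 7.32 and 7.57 against 7.39 and 7.37 and differed by 0.07, so that with all probe sets averaged the difference was 0.56 (adjusted p = 0.0783). With 1 array left out it was 0.88 to 1.22, with adjusted p from 0.069 to 0.133. Eif5b, the GTPase that joins the subunits, was at 10.32 and 9.96 against 9.55 and 9.76, a difference of 0.49 ± 0.17 (SE, limma adjusted p = 0.136). Eif5, the GTPase-activating partner of eIF2, differed by -0.17 with overlapping groups. Its 4 other bright probe sets split, with 2 lower in both knockout arrays by 0.68 and 0.41 on the log2 scale (limma adjusted p = 0.0713 and 0.159 singly) and 2 at 0.87 and 0.50 with overlapping groups.

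eIF5A carries the modified lysine hypusine and helps the ribosome through stretches that are slow to form peptide bonds. Its 2 genes lay on opposite sides of the control, with groups that did not overlap in either. Eif5a, the common form, was at 14.01 and 13.91 in the knockout and at 13.58 in both control arrays (0.39 ± 0.13, SE, limma adjusted p = 0.130). Its other probe set was at 12.27 and 12.17 against 10.82 and 10.77, a difference of 1.43 that passed singly (adjusted p = 0.0285), and with all probe sets averaged the gene passed (0.91, adjusted p = 0.0297). Eif5a2, the tissue-restricted form, was at 7.36 and 7.32 against 8.01 and 7.85, a difference of -0.59 ± 0.14 (SE, limma adjusted p = 0.0573), and its other probe set differed by -0.49. With genes at a mean under 6 left out of the test, Eif5a2 passed (adjusted p = 0.0473).

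**Figure D2:**
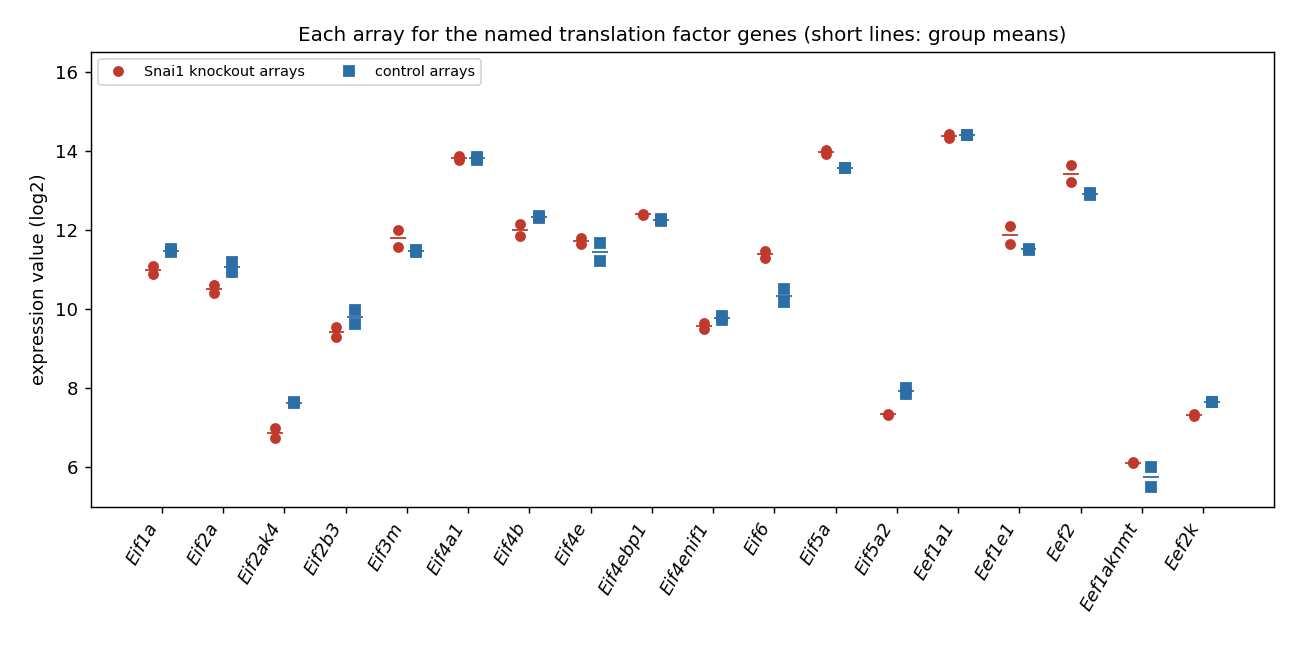
Expression value (log2, vertical axis) of each of the 4 arrays for the named translation factor genes, with circles for the knockout, squares for the control and short lines for group means. The groups stand clearly apart for Eif6 (11.30 and 11.48 against 10.17 and 10.51) and Eif2ak4 (7.01 and 6.74 against 7.65 and 7.62) and nearly coincide for Eif4a1 and Eef1a1. Each gene is shown by its brightest probe set. Heights of different genes are not comparable.

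Of the elongation factors, none passed. Eef1a1, the aminoacyl-tRNA carrier of proliferating cells, was at 14.42 and 14.32 in the knockout against 14.41 and 14.39 in the control, for a difference of -0.03 with a 95% interval of -0.34 to 0.28. Its muscle and neuron form Eef1a2 differed by -0.07, the exchange factor subunits Eef1b2 and Eef1d by 0.12 and -0.13, and Eef1e1, a scaffold protein of the synthetase complex, by 0.36 (11.65 and 12.10 against 11.53 and 11.49, limma adjusted p = 0.262). Eef2, the translocase, was at 13.63 and 13.21 against 12.94 and 12.88. Both knockout arrays were higher, by 0.52 ± 0.17 (SE, 95% interval 0.12 to 0.92), and the gene did not pass (limma adjusted p = 0.119).

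Elongation factor messages are known for a tract of pyrimidines at their 5' end that ties their translation to mTOR. The word CTTTT, the word CTTTC or the word CTCTT, on the transcribed strand between 25 bases before and 50 after the start, occurred in 13 of the 60 member promoters (21.7%) and in 23.2% of all promoters. Matches of the 3 words may overlap, and a promoter was counted once. In Eef2 the word begins at base 16 after the annotated start, so by that start it does not lie at the 5' end of the message. A match describes the letters and does not show a tract at the 5' end. The 30 bases before and after that start are shown with the word in capitals.
Eef2 (chr10:81176601-81176660, plus strand): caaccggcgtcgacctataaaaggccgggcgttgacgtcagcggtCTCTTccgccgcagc

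The genes that modify the elongation factors did not pass either. Eef2k, the kinase that inactivates eEF2, was at 7.35 and 7.31 in the knockout and at 7.65 in both control arrays, a difference of -0.32 ± 0.13 (SE, limma adjusted p = 0.195) with groups apart, and its other probe set at a mean above 6 differed by -0.08. Eef2kmt, the methyltransferase of eEF2, differed by -0.24. The eEF1A methyltransferase genes Eef1aknmt, Eef1akmt1 and Eef1akmt2 differed by 0.36, -0.27 and 0.16, and in the latter 2 the replicates were further apart than the groups (Eef1akmt2 was at 8.31 and 9.11 in the knockout against 8.36 and 8.74 in the control).

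The answer for a gene often depended on which probe set was read. Of the 29 members with more than 1 probe set reaching a mean of 6, 18 had probe sets of both signs, and in 20 the differences spread by over 0.5, with a median spread of 0.73. Tested singly, 4 of the 150 member probe sets passed (2.67%), 3 higher and 1 lower, against 0.79% of all 34945 one-gene probe sets (0.612% higher, 0.177% lower). These shares are not matched for brightness, since 109 of the 150 reached a mean of 6, against 14861 of the 34945. None of the 4 that passed was the brightest of its gene. The brightest probe sets of Eif6 and Eif2ak4 did not pass singly (limma adjusted p = 0.052 and 0.0625). The 3 higher ones belonged to Eif5a, Eif4ebp1 and Eif4a1, where a probe set at 13.28 and 13.22 against 12.12 and 12.15 differed by 1.11 (limma adjusted p = 0.0427) beside 2 others at 0.01 and 0.16. The lower one belonged to Eif5b, at 5.95 on both knockout arrays and 6.89 and 6.94 in the control (-0.97, adjusted p = 0.0446), beside 2 others at 0.49 and 0.71.

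**Figure D3:**
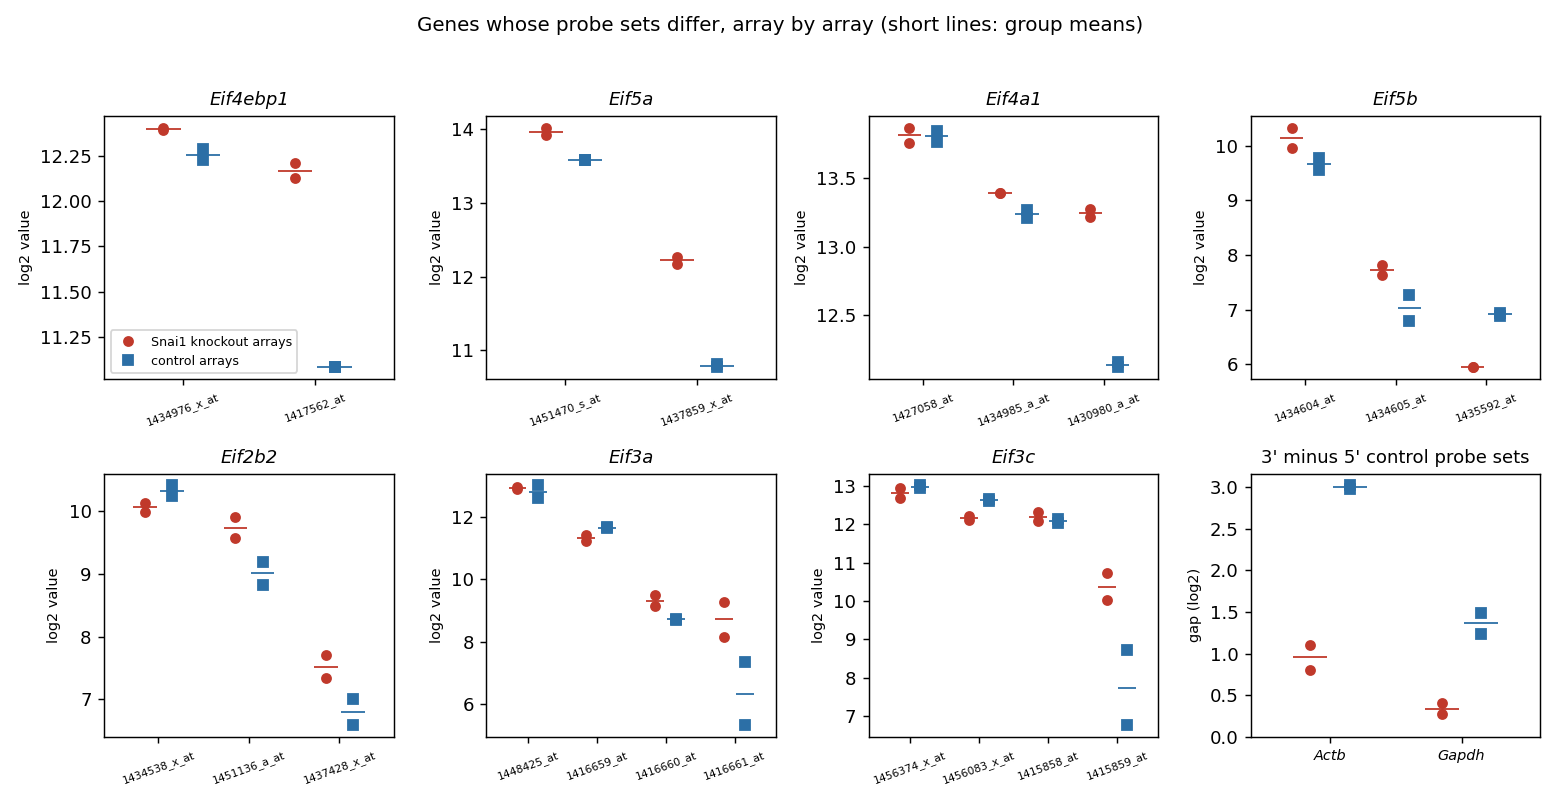
Values of each array (log2) for 7 genes whose probe sets differ, and in the last panel the gap between 3' and 5' control probe sets of Actb and Gapdh. In Eif4ebp1, Eif5a and Eif4a1 the groups lie close by the brightest probe set and over 1 apart by another, and the control arrays also have the larger gap (3.02 and 2.97 against 1.11 and 0.80 for Actb).

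In some probe sets the control replicates themselves parted. Control replicate 2 lay at least 1 below control replicate 1 in 6 of the 109 member probe sets at a mean of 6 or more (5.5%, against 2.23% of all such probe sets), and the opposite occurred in 0. They belonged to Eif3a, Eif3c, Eif2s2, Eif4ebp2 and Eif5, the last with 2. The dimmest bright probe set of Eif3c was at 10.02 and 10.73 in the knockout, 8.72 in control replicate 1 and 6.77 in control replicate 2, a difference of 2.63 (limma adjusted p = 0.0779 singly), while the other 3 differed by -0.46 to 0.12. That of Eif3a was at 8.16 and 9.28 in the knockout against 7.34 and 5.35 in the control (2.38, adjusted p = 0.110), beside 3 others at -0.33 to 0.60. The place of each probe set along its transcript was not known here. The 3' minus 5' gap on control replicates 1 and 2 was 3.02 and 2.97 for Actb and 1.24 and 1.48 for Gapdh, and its part in these spreads was not tested.

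**Figure D4:**
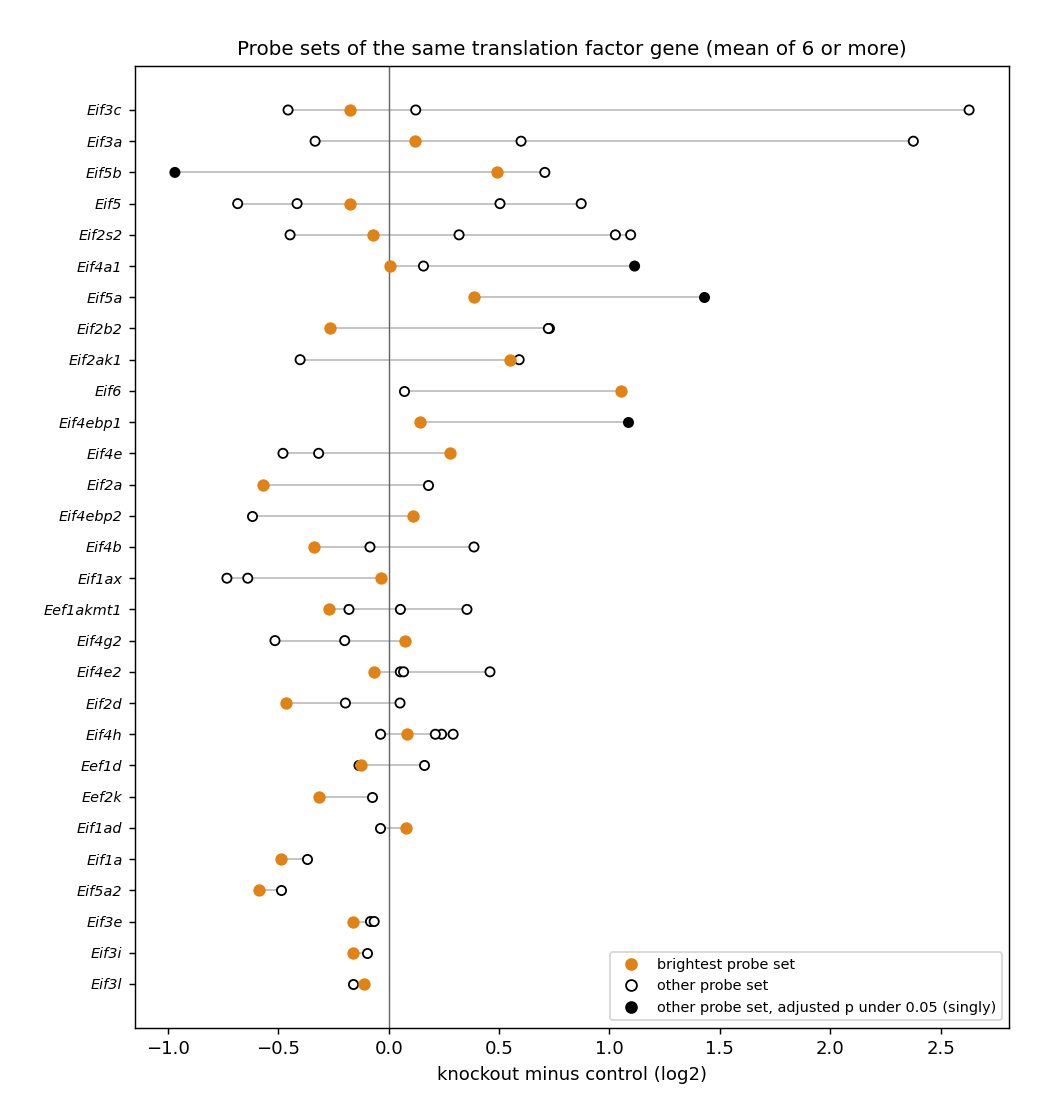
Knockout minus control difference (log2, horizontal axis) of every probe set whose mean reached 6, for the 29 translation factor genes with more than 1, ordered by spread. Orange points mark the brightest probe set, and filled black points mark the 4 others that passed singly, in Eif5a, Eif4ebp1, Eif4a1 and Eif5b. The widest spreads are those of Eif3c (3.08) and Eif3a (2.71).

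The share of positive differences was lower among members of longer genomic span. Of 15 members that span under 10 kb 9 had a positive difference (60%, against 58.3% of all such genes), of 26 between 10 and 30 kb 13 did (50%, against 48.1%), and of 15 at 30 kb or more 5 did (33.3%, against 36.1%). Among other genes whose mean reached 10, the shares were 60.3%, 35.2% and 22.4% in the same order of span, and among members at that level they were 7 of 13, 10 of 20 and 2 of 5. Spearman's rho between span and difference was -0.21 over the 56 members and -0.25 over 18031 genes, a description across genes that share the same 4 arrays. Eif6, the member that rose, spans 7.09 kb, and Eif2ak4, the member that fell, spans 86.7 kb. By their brightest probe sets Eif2ak1 and Eif5b, at 84.9 and 57.6 kb, were among the exceptions with positive differences. Each also had a bright probe set lower in both knockout arrays (-0.40 and -0.97) and another higher in both (0.59 and 0.71).

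**Figure D5:**
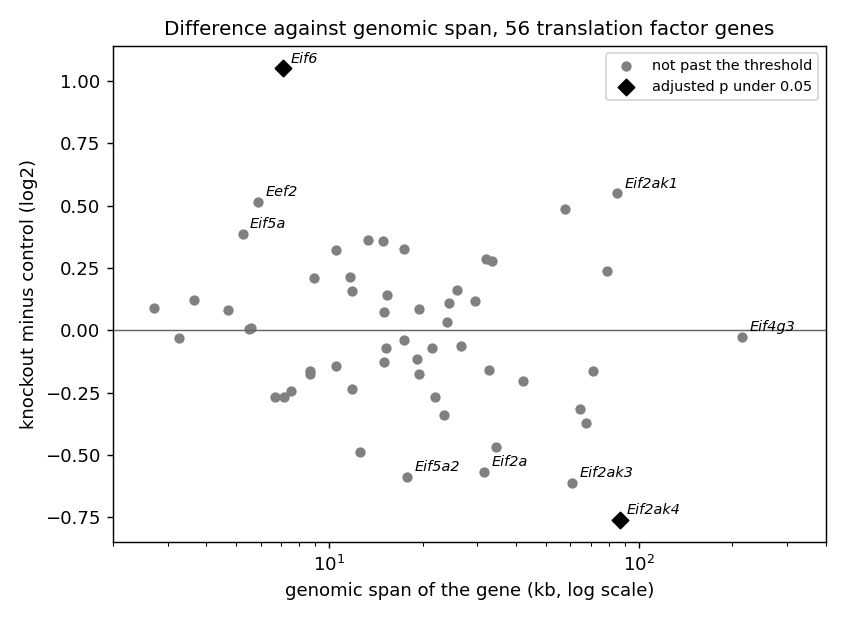
Knockout minus control difference (log2, vertical axis) against the genomic span of each of the 56 translation factor genes (kb, log scale), with black diamonds for the 2 past the threshold. Of the 15 members at 30 kb or more, 5 lie above 0, against 9 of the 15 under 10 kb.

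Of 63 measured partner genes that act beside these factors, 2 rose and 0 fell (limma, 3.17%, against 4.14% of all genes). At an unadjusted p of 0.05, 10 of the 63 were higher and 15 lower (limma), while 23.9% of all genes passed in either direction. Their median difference was -0.11, against -0.02 over all genes. Once every gene averaging under 6 was dropped, the median over the remaining 9484 was -0.09. The shares and the median given here for all genes are not matched to the partners for brightness. Vars, the valyl-tRNA synthetase that binds eEF1, was at 10.05 and 9.89 in the knockout against 8.80 and 9.02 in the control, for a difference of 1.06 ± 0.15 (SE, limma adjusted p = 0.0286). Eefsec, the elongation factor for selenocysteine, was at 7.83 and 7.49 against 6.75 and 6.94 (0.81 ± 0.17, SE, adjusted p = 0.0465). Neither passed with any array left out. None of 12 poly(A)- and cap-proximal genes, 9 termination and rescue genes, 9 hypusine and diphthamide enzymes or 13 genes of mTOR, Mnk and eIF2 phosphatase signalling passed (limma, respectively 1, 0, 3 and 3 higher and 2, 4, 1 and 2 lower at an unadjusted p of 0.05). The largest difference among these was that of Ppp1r15a, the stress-induced subunit of the eIF2 phosphatase also called GADD34, at 9.51 and 8.94 against 8.40 and 8.17 (0.94 ± 0.21, SE, adjusted p = 0.0512). Dohh, the hydroxylase that completes hypusine on eIF5A, was at 9.54 and 9.63 against 8.51 and 9.10, a difference of 0.78 (adjusted p = 0.0705), and Dhps, which precedes it, differed by -0.43. Mtor differed by -0.17. The smaller Actb gap of these knockout arrays was not tested as a factor in either rise.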

How the data were processed

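Both groups were measured on 4 Affymetrix arrays in all, 2 per group. The deposited values are log2 expression values for 45101 probe sets per array. The submitters' processing notes name RMA (background correction, quantile normalization and probe summary) and limma, without versions. Their order and settings and the genome build were not known here. Because quantile normalization equalises the arrays, a change common to most genes would not be seen. Array medians were 4.91 to 4.95, and values were used as deposited.

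GEO's platform annotation named 34958 probe sets with 1 symbol, 932 with several and 9211 with none. Of the 34945 one-gene probe sets used, 34741 matched the RefSeq gene table (GRCm38.p6) by gene ID and 0 symbols changed. The brightest stood for each of 18193 genes. limma 3.58.1 in R 4.3.3 (lmFit, eBayes, no covariates) gave two-sided p-values, adjusted by Benjamini-Hochberg over all genes. The test was checked on simulated data. The number of arrays limits the precision, with 2 residual and 5.31 prior degrees of freedom.

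Members and lists were chosen with earlier results of these data known. Named were the members past the threshold, otherwise the largest difference in each complex, a preset list of core factors, and partner genes past the threshold. Other members and partners, such as Eif2ak3 and Ppp1r15a, were chosen after their values were seen. Alternatives covered the prior variance, scaling, dim genes, the choice of probe set, a replicate block, gene span and leaving out each array.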

Additional observations from a re-analysis of the deposited data

How the results depend on the processing

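The count of translation factor genes past the threshold (1 higher, 1 lower) was the same with a robust prior, a further quantile normalization, median centring and a filter at a mean of 5. The higher count was 2 without _s_at and _x_at probe sets, and the lower count was 2 with genes under a mean of 6 left out and 0 with an intensity trend, with all probe sets averaged or after removal of the span trend. Leaving out 1 array gave 0 in each direction; the single array left in a group was then taken to have the spread of the intact group. Over all genes, 360 higher and 394 lower became 224 and 97 with all probe sets averaged, 198 lower with an intensity trend, 699 lower with the filter at 6 and 215 lower after removal of the span trend. Leaving out 1 array gave 2 to 46 higher and 2 to 4 lower. Partner genes, 2 higher and 0 lower, became 1 higher with an intensity trend or all probe sets averaged, 5 higher and 1 lower with the filter at 6, and 3 lower after removal of the span trend, and 0 higher with any array left out. The cause of these moves was not tested. Averaging takes in dim probe sets and leaving out an array removes data, and the part of either in the moves was not tested.

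The replicate numbers share no stated culture or day, and the deviations of same-numbered arrays correlated at 0.29 over genes. With the replicate block 3 members were higher and 6 lower (Eef2, Eif2ak1 and Eif6, and Eif1a, Eif2a, Eif2ak3, Eif2ak4, Eif2d and Eif5a2). That was 16.1% of the members, against 17% of all genes (1200 higher and 1892 lower). Of the partner genes 9 were higher and 5 lower with the block. The median over the members, -0.0272, ran from -0.0671 without control replicate 1 to 0.0281 with all probe sets averaged, and was also above 0, at 6e-04, after removal of the span trend and, at 3e-04, without knockout replicate 2. Of the named members, 4 that did not pass changed sign: Eif4enif1 was at 0.0048 after removal of the span trend, Eif4e at -0.0933 with all probe sets averaged, and Eef1a1 ran from -0.0774 without knockout replicate 1 to 0.0195 without knockout replicate 2. Eif4a1 was at -0.11 with a further quantile normalization, -0.0097 with median centring, -0.0071 after removal of the span trend, and with 1 array left out ran from -0.0473 (without knockout replicate 1) to 0.0611 (without knockout replicate 2). Signal within the background range limits Eif4a3.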
